A study of Mus musculus with 4 samples.

Results

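The vacuolar proton pump and the chloride and sodium-proton exchangers that work beside it were followed in melanotropes and corticotropes, the cells of the pituitary that produce pro-opiomelanocortin (POMC). Members were taken by gene symbol, as every subunit gene of the V1 and V0 sectors of the pump (Atp6v1 and Atp6v0), the accessory genes Atp6ap1 and Atp6ap2, the chloride channel and exchanger genes Clcn1 to Clcn7 (Clcn4 is listed as Clcn4-2 and falls outside the rule) and the numbered sodium-proton exchanger genes of the Slc9a family. These were 49 of 33072 transcripts in the deposited table, and 40 of 24063 gene symbols. The symbol Atp6v0c-ps2 is a pseudogene name whose row lies over Atp6v0c on chromosome 17 (24163865 to 24169395 on mm10) and counted nearly the same reads, so it is not independent of Atp6v0c. It is kept in the counts below.

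RNA-seq compared melanotropes of the intermediate lobe with corticotropes of the anterior lobe, with 2 libraries of each. Both came from the POMC-EGFP line on the C57B6 strain, in which the Pomc promoter drives EGFP, and were GFP-positive cells sorted from dissected lobes. Cells of either type are therefore those in which the transgene was active, and all 4 libraries carry it. Age, sex, the number of animals per library and whether replicates were separate sorts are not given in the labels, so p-values measure only the spread between these libraries, which may be technical.

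The V-ATPase is a rotary enzyme. Its V1 sector hydrolyses ATP in the cytosol, at sites formed by the A and B subunits, and turns a ring of proteolipid subunits in the membrane-bound V0 sector, which moves protons into the lumen. In endocrine cells the pump acidifies the trans-Golgi network and the secretory granules, which the convertases that cut POMC need for their activity, as well as endosomes and lysosomes. Chloride entering through Clcn exchangers balances the charge, and Slc9a exchangers of endosomes and the Golgi let protons leak out again in exchange for sodium or potassium.

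The values are FPKM (fragments per kilobase of exon, scaled to library size), rescaled between libraries so that the typical gene is level. The rescaling matters here. Pomc took 49.7% and 50.9% of the summed deposited FPKM in melanotropes, against 27.8% and 27.2% in corticotropes, and the deposited columns have nearly equal sums, which leaves less for every other gene in melanotropes. Differences below are thus read against the typical gene, whose median log2 fold change was 0.01 after rescaling and -0.42 before. Implied read counts, from the spacing of low values, were 146045407 and 149637529 in melanotropes and 97610043 and 187226627 in corticotropes over the longest transcript of each gene. Marker genes went with the labels. All 6 melanotrope markers tested were higher in melanotropes and all 5 corticotrope markers lower. Pax7 was at 57.2 and 56.0 FPKM in melanotropes, against 9.45 and 7.97 FPKM in corticotropes, and Crhr1 at 8.13 and 7.03 FPKM against 125.5 and 138 FPKM. The corticotrope markers Avpr1b and Neurod1 were under 1 FPKM in both melanotrope libraries. Genes entered the test at 1 FPKM in at least 2 libraries, so these could only come out lower. Markers of somatotropes, lactotropes, gonadotropes and thyrotropes were lower in melanotropes for 13 of 13 genes. They summed to 14.7 and 63.8 FPKM in melanotropes, against 5810 and 5661 FPKM in corticotropes. Of these genes Tshb, Pou1f1, Foxl2, Dlk1, Nr5a1, Gata2, Ghrhr and Gnrhr were under 1 FPKM in both melanotrope libraries. These too entered through corticotropes alone and could only come out lower. Melanotrope markers were present in corticotropes, at means of 8.71 (Pax7), 86.3 (Pcsk2), 17.0 (Drd2), 79.4 (Oacyl), 13.3 (Gulo) and 79.0 (Esm1) FPKM. The means in melanotropes were 56.6, 644.8, 109.4, 606.3, 90.6 and 372.5 FPKM in the same order. In sorted populations a smaller number of cells of a type and less RNA per cell cannot be told apart. What part either has in the member values was not tested.

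Most members tested were not called different between the cell types, as was so for most genes. Of 31 members tested, 5 were higher and 3 lower in melanotropes at an adjusted p of 0.05 (limma), or 25.8%, against 36.2% of all 13043 genes tested. The median log2 fold change was 0.00 over the members and 0.01 over all genes. On the log2 scale 20 of the 31 lay within 0.25 of no change (64.5%, against 54.4% of all genes). By part of the pump that share was 70.0% of 10 V1 genes, 62.5% of 8 V0 genes and 0.0% of the 2 accessory genes. Of the 31, 2 changed by 2-fold or more (6.45%, against 8.89% of all genes), both higher in melanotropes. They were Atp6v1a, the catalytic A subunit of the pump, and Slc9a9, a sodium-proton exchanger of endosomes, and they are the members called under all 14 alternative settings run. The remaining 9 members were under the filter of 1 FPKM in at least 2 libraries and were not tested. Libraries of the cell types did not overlap for 61.3% of the members tested, against 70.3% of all genes. A lack of overlap alone thus sets no member apart. Without rescaling, 2 members were higher and 26 lower, where 73.9% of all genes were called, 7.14% higher and 66.8% lower. With no filter on low values the calls of Atp6v0e (adjusted p = 0.112), Atp6ap1 (0.118) and Atp6v0a2 (0.119) were lost, and with equal sums of transcripts other than Pomc that of Atp6v0a1 (0.0549).

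**Figure D1:**
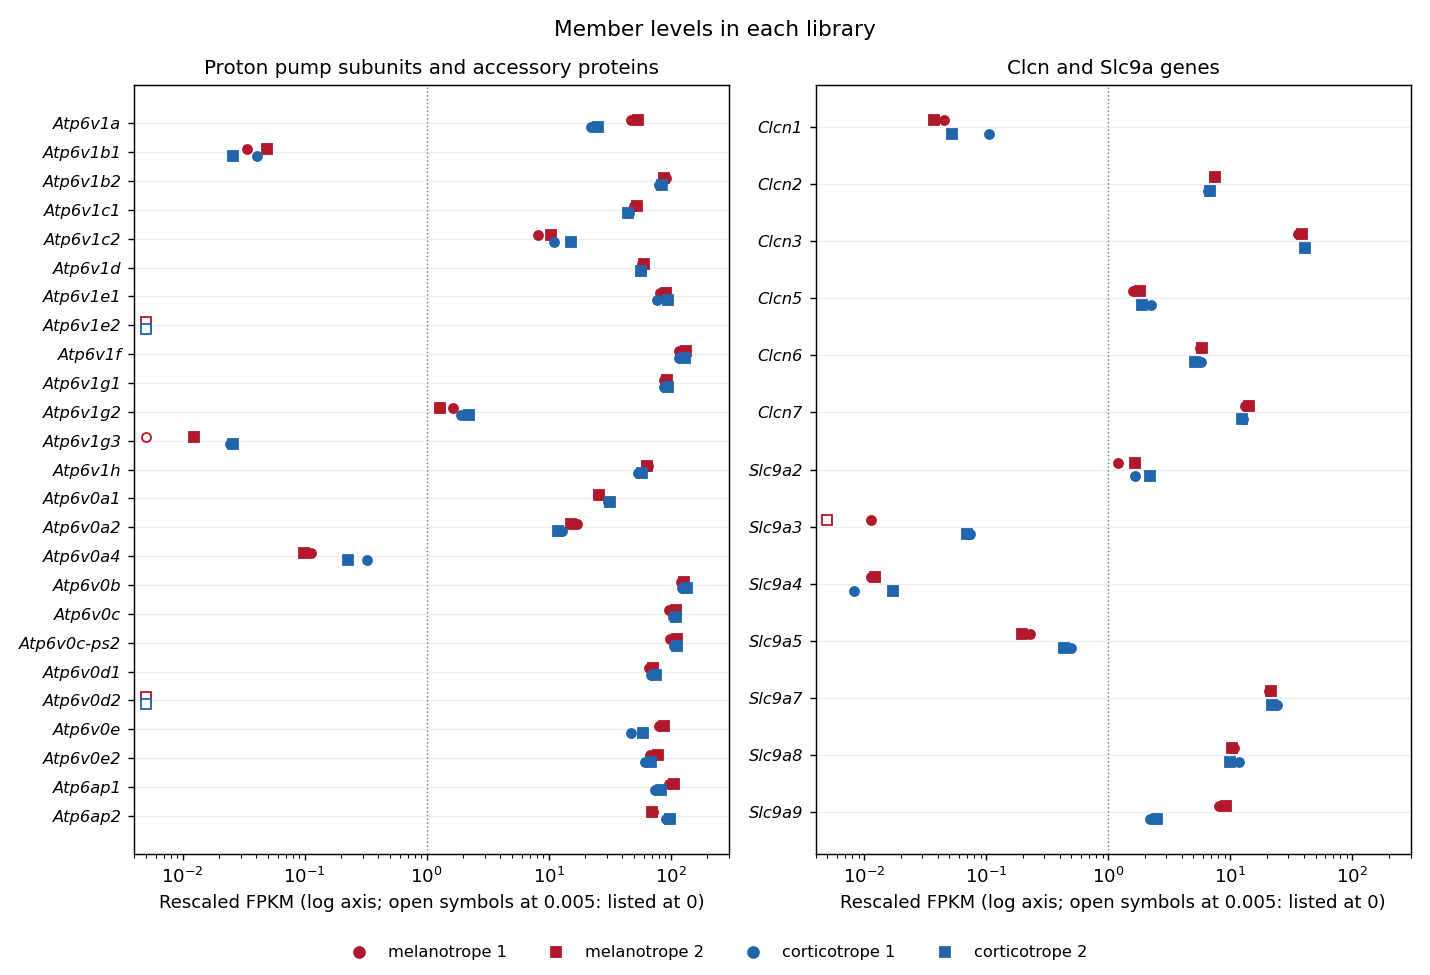
Rescaled FPKM of 38 members in each library on a log axis, with proton pump genes on the left and Clcn and Slc9a genes on the right. Red symbols are the 2 melanotrope libraries and blue symbols the 2 corticotrope libraries, open symbols mark values listed at 0, and the dotted line is the filter of 1 FPKM. Most pump genes lie near each other between 40 and 140 FPKM in all 4 libraries, and Atp6v1a and Slc9a9 have red and blue symbols clearly apart.

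Atp6v1a (chromosome 16, 44085404 to 44139019 on mm10, minus strand) encodes the A subunit, which binds and splits ATP. It had 47.0 and 53.5 FPKM in melanotropes, against 22.3 and 25.4 FPKM in corticotropes. The groups did not overlap, as for 70.3% of all genes tested. The means were 50.3 ± 4.62 FPKM in melanotropes and 23.9 ± 2.20 FPKM in corticotropes (SD, n = 2 each). The log2 fold change was 1.04 (SE 0.11), past the threshold in limma (adjusted p = 8.20e-04). The implied reads behind these values were 35646 and 39736 in melanotropes and 12334 and 26491 in corticotropes. It was higher on the deposited scale too, at 41.4 and 43.2 FPKM in melanotropes and 27.3 and 29.3 FPKM in corticotropes, where the log2 fold change was 0.57. In FPKM, which is per length, it was below Atp6v1b2, Atp6v1d, Atp6v1e1, Atp6v1f, Atp6v1g1 and Atp6v1h in all 4 libraries. Its ratio to Atp6v1b2, the B subunit it alternates with, was 0.510 and 0.605 in melanotropes and 0.281 and 0.299 in corticotropes, a measure within each library that does not depend on scaling.

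The other V1 genes tested did not pass the threshold in the fit on cell type alone, and 7 of the 10 V1 genes tested lay within 0.25 of no change. Atp6v1b2, the B subunit found in most tissues, had 92.1 and 88.5 FPKM in melanotropes, against 79.4 and 85.0 FPKM in corticotropes (log2 fold change 0.13, SE 0.09). Atp6v1h, which holds the pump in check when V1 is detached, had 65.2 and 63.7 FPKM against 53.6 and 57.9 FPKM, a log2 fold change of 0.21 that missed the threshold (adjusted p = 0.107, limma; range over alternatives 0.0213 to 0.472). The melanotrope libraries were above the corticotrope libraries for both genes, by margins small beside that of Atp6v1a. Atp6v1f, of the central stalk, was at 116.5 and 134 FPKM in melanotropes and 116 and 130.3 FPKM in corticotropes, and Atp6v1g1, of the peripheral stalks, was at 88.4 and 93.2 against 87.4 and 94.3 FPKM. For the peripheral stalk gene Atp6v1e1 the values were 81.5 and 90.8 against 77.8 and 95.2 FPKM. These last 3 genes overlapped between cell types, with log2 fold changes from 0.00 to 0.02. The central stalk gene Atp6v1d had 58.7 and 60.5 FPKM in melanotropes and 56.9 and 57.3 FPKM in corticotropes.

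The C subunit, which links V1 to V0 and is released when the sectors part, comes from 2 genes. Atp6v1c1, the common form, had 49.9 and 52.8 FPKM in melanotropes, against 45.9 and 44.8 FPKM in corticotropes. Atp6v1c2 (chromosome 12), known from kidney and lung, had 8.20 and 10.4 FPKM in melanotropes, against 11.1 and 15.1 FPKM in corticotropes. The cell types did not overlap for either, as for 70.3% of all genes tested, and neither passed the threshold (adjusted p = 0.142 and 0.0850, limma). Atp6v1c2 passed without melanotrope replicate 2 (adjusted p = 0.0423) and without corticotrope replicate 1 (0.0136), in a range over its alternatives from 0.00103 to 0.315. Atp6v1c2 made up 14.1% and 16.4% of the summed C subunit FPKM in melanotropes and 19.5% and 25.2% in corticotropes. The forms of the B, E and G subunits that are known from kidney or testis were at or near 0. Atp6v1b1 was at 0.0496 FPKM or less in every library, Atp6v1g3 at 0.0261 FPKM or less, and Atp6v1e2 was listed at 0 in all 4. Atp6v1g2, the neuronal G subunit, reached 1.66 and 1.29 FPKM in melanotropes and 1.90 and 2.22 FPKM in corticotropes (adjusted p = 0.0893, limma).

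In the V0 sector the tested proteolipid and d subunit genes were not called, and the a and e subunits differed by isoform. Atp6v0c, the main proteolipid of the ring, had 96.2 and 109.8 FPKM in melanotropes, against 104 and 110.1 FPKM in corticotropes, and Atp6v0b, another proteolipid, had 120.5 and 129 against 124 and 136 FPKM. Atp6v0d1, which joins the ring to the central stalk, was at 66.2 and 71.9 against 69.0 and 75.5 FPKM. All 3 overlapped between cell types, with log2 fold changes from -0.07 to -0.06. The osteoclast form Atp6v0d2 was listed at 0 in all 4 libraries.

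The a subunit carries the path of the protons and, by its isoform, helps to decide to which membrane the pump goes. Atp6v0a1 (chromosome 11, 101009452 to 101063717), the form of neurons and of synaptic vesicles, had 25.3 and 25.6 FPKM in melanotropes, against 30.5 and 31.6 FPKM in corticotropes. Atp6v0a2 (chromosome 5, 124629052 to 124724455), the form of the Golgi and endosomes, had 17.1 and 15.2 FPKM in melanotropes, against 12.97 and 11.9 FPKM in corticotropes. The libraries did not overlap for either gene, as for 70.3% of all genes tested, and the 2 genes moved in opposite directions. In log2 fold change Atp6v0a1 was lower by limma at -0.28 (SE 0.08, adjusted p = 0.0324) and Atp6v0a2 higher at 0.35 (SE 0.09, adjusted p = 0.0312). The call of Atp6v0a1 was lost when any 1 library was left out, at adjusted p = 0.123 and 0.106 without melanotrope replicates 1 and 2 and 0.0767 and 0.159 without corticotrope replicates 1 and 2 (range over alternatives 7.20e-04 to 0.159). That of Atp6v0a2 was lost without melanotrope replicate 1 (0.146), corticotrope replicate 1 (0.0557) or corticotrope replicate 2 (0.110; range 0.00246 to 0.455), and on the deposited scale its log2 fold change was -0.11.

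Within a library the ratio of Atp6v0a2 to Atp6v0a1 was 0.675 and 0.593 in melanotropes and 0.425 and 0.375 in corticotropes, free of the scaling. Tcirg1, the a3 subunit of lysosomes and osteoclasts, whose symbol falls outside the family's naming, was lower in melanotropes at 2.76 and 3.30 FPKM, against 5.39 and 5.47 FPKM in corticotropes (log2 fold change -0.68, adjusted p = 0.00354, limma). Over the 4 genes of the a subunit, Atp6v0a2 made up 37.8% and 34.4% of the FPKM in melanotropes and 26.4% and 24.1% in corticotropes, and Atp6v0a1 made up 55.9% and 58.0% against 62.0% and 64.3%. Atp6v0a4, the form of acid-secreting kidney cells, was at 0.113 and 0.0992 FPKM against 0.327 and 0.226 FPKM. The 4 transcripts of Atp6v0a1 differed by at most 1.35% within a library, since they share most exons, and cannot be told apart here. With 2 libraries against 2 these shares are given without a test.

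The e subunit is a small membrane protein of V0, made from Atp6v0e or Atp6v0e2. Atp6v0e (chromosome 17, 26676396 to 26699646) had 80.3 and 88.6 FPKM in melanotropes, against 47.2 and 59.8 FPKM in corticotropes. The cell types did not overlap, as for 70.3% of all genes tested. Atp6v0e was higher in melanotropes (log2 fold change 0.66, SE 0.13, adjusted p = 0.0111, limma). On the deposited scale the log2 fold change was 0.17 and the call was lost (adjusted p = 0.161; range 9.91e-05 to 0.161). Atp6v0e2, the form rich in brain, had 68.2 and 79.0 FPKM in melanotropes, against 61.8 and 68.9 FPKM in corticotropes, and overlapped. Atp6v0e made up 54.1% and 52.9% of the pair in melanotropes and 43.3% and 46.5% in corticotropes.

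**Figure D2:**
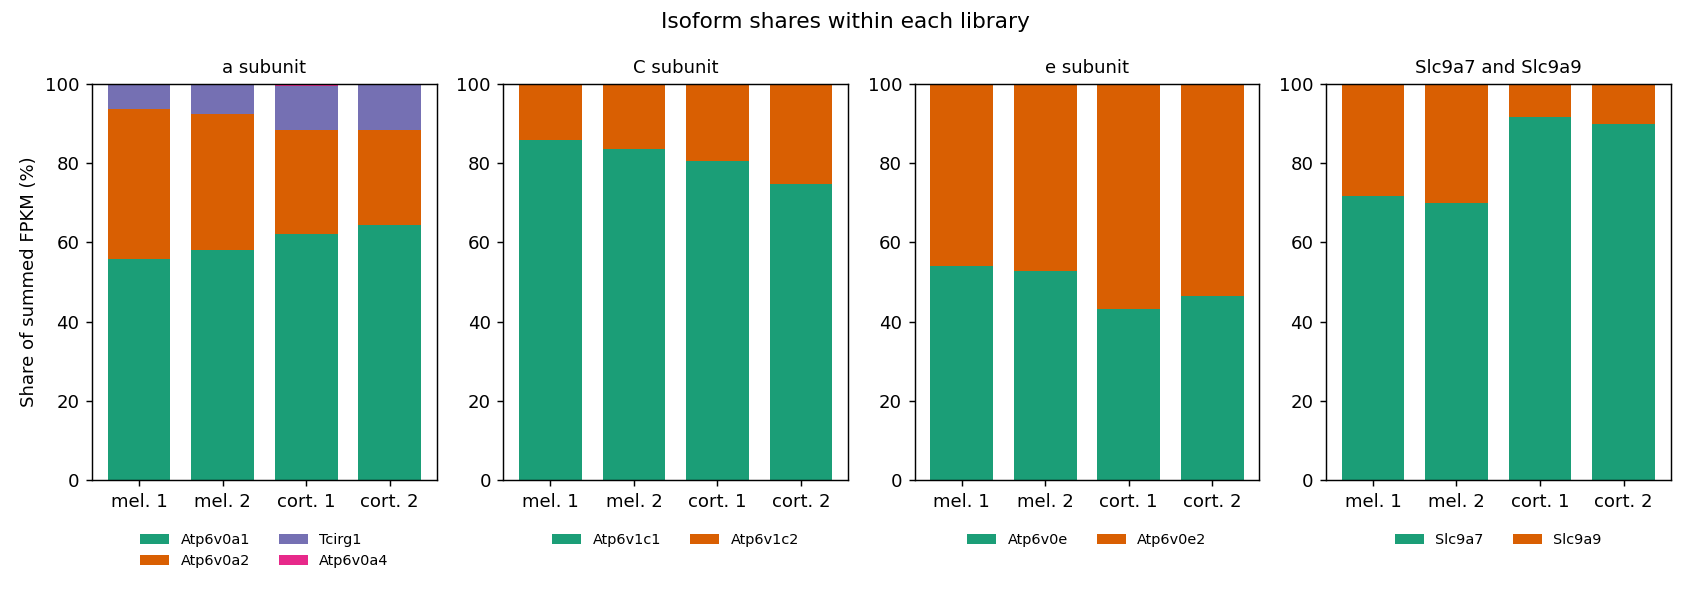
Share of summed FPKM, in percent, taken by each gene of the a, C and e subunits and by the sodium-proton exchangers Slc9a7 and Slc9a9, as stacked bars, with the melanotrope libraries (mel.) left of the corticotrope libraries (cort.). Slc9a9 takes 28.2% and 30.0% of its pair in melanotropes and 8.48% and 10.3% in corticotropes, and the Atp6v0a2, Atp6v0e and Atp6v1c1 shares are larger in both melanotrope libraries.

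The accessory proteins went opposite ways. Atp6ap1 (chromosome X, 74297097 to 74304721), a glycoprotein needed for assembly of V0 in the endoplasmic reticulum, had 97.5 and 107 FPKM in melanotropes, against 74.2 and 83.2 FPKM in corticotropes. Atp6ap2 (chromosome X, 12587759 to 12617051), also known as the prorenin receptor and likewise part of V0, had 71.6 and 70.5 FPKM in melanotropes, against 91.0 and 98.3 FPKM in corticotropes. Neither gene's libraries overlapped between cell types, as for 70.3% of all genes tested. The log2 fold changes were 0.37 (SE 0.10, adjusted p = 0.0330, limma) for Atp6ap1 and -0.41 (SE 0.09, adjusted p = 0.0144) for Atp6ap2, and the ratio of Atp6ap1 to Atp6ap2 within a library was 1.36 and 1.51 in melanotropes and 0.816 and 0.846 in corticotropes. The call of Atp6ap1 was lost without melanotrope replicate 1 (adjusted p = 0.0504), melanotrope replicate 2 (0.141) or corticotrope replicate 1 (0.190; range 7.28e-04 to 0.193), and on the deposited scale its log2 fold change was -0.11. That of Atp6ap2 was lost without melanotrope replicate 1 (0.0505), melanotrope replicate 2 (0.0614) or corticotrope replicate 2 (0.0991; range 5.19e-04 to 0.0991).

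**Figure D3:**
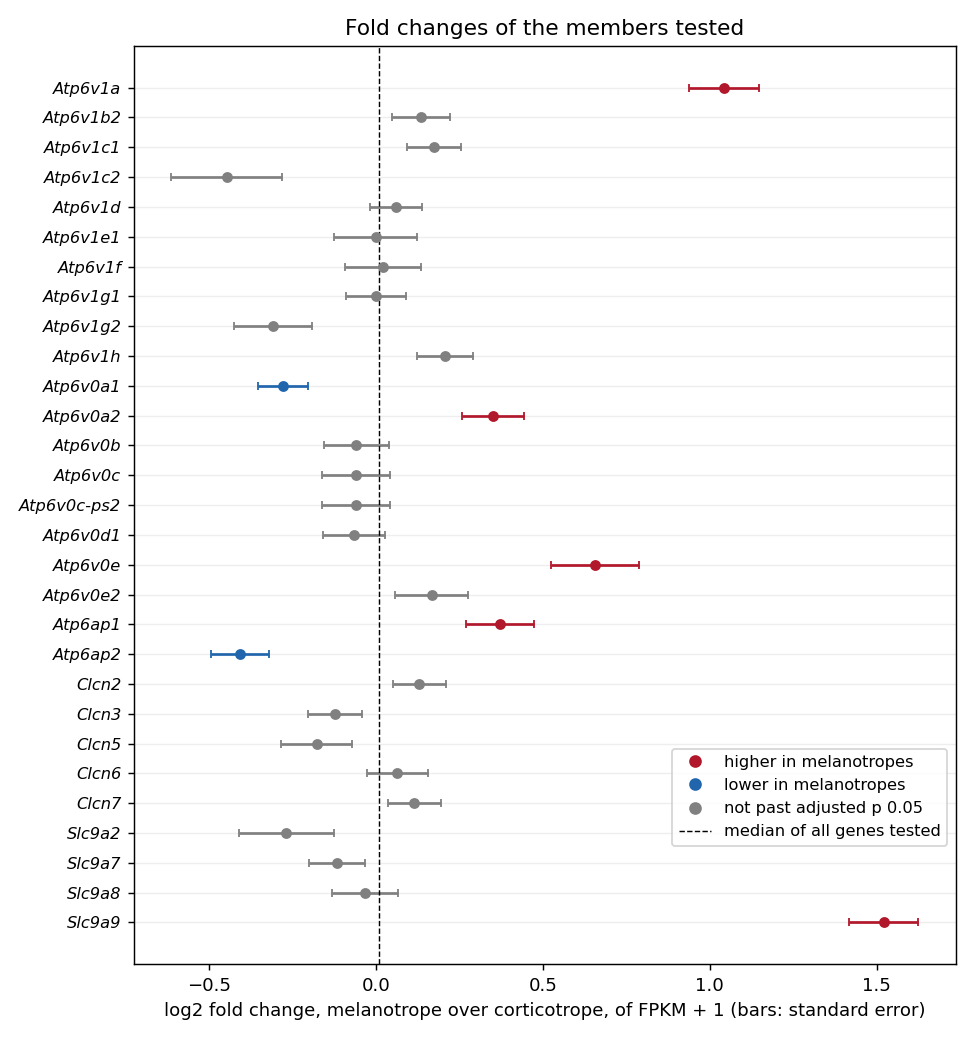
Log2 fold change of melanotropes over corticotropes for 29 of the members tested, on rescaled FPKM + 1, with bars of 1 standard error. Red points were higher and blue points lower in melanotropes at an adjusted p of 0.05 (limma), grey points did not pass, and the dashed line is the median of all genes tested. Atp6v1a at 1.04 and Slc9a9 at 1.52 lie farthest from that line.

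On rescaled values the Clcn members were not called, while Clcn4-2, outside the rule, was higher in melanotropes. Of 5 members tested, 0 passed the threshold in limma, against 36.2% of all genes, and 0 had an unadjusted p under 0.05. Their rescaled log2 fold changes ran from -0.18 to 0.13. On the deposited scale all 5 were called lower (adjusted p from 0.00122 to 0.0274, limma), where 66.8% of all genes were. Clcn3, an endosome and synaptic vesicle exchanger, was the highest at 36.0 and 39.0 FPKM in melanotropes, against 40.8 and 40.9 FPKM in corticotropes (log2 fold change -0.12, SE 0.08, adjusted p = 0.293, limma). Clcn7, the lysosomal exchanger, had 13.3 and 14.2 FPKM against 12.8 and 12.5 FPKM. Clcn2, a plasma membrane channel, had 7.33 and 7.52 FPKM in melanotropes and 6.56 and 6.83 FPKM in corticotropes, Clcn6, of late endosomes, 5.63 and 5.91 against 5.80 and 5.16 FPKM, and Clcn5, of early endosomes, 1.59 and 1.82 against 2.23 and 1.89 FPKM. Of these genes only Clcn6 overlapped between cell types, while libraries did not overlap for 70.3% of all genes tested. Clcn1, the skeletal muscle channel, was at 0.106 FPKM or less everywhere. Clcn4-2, an endosomal exchanger like Clcn3 that was looked at after its values were seen, had 34.9 and 35.2 FPKM in melanotropes, against 21.0 and 22.6 FPKM in corticotropes (log2 fold change 0.66, SE 0.08, adjusted p = 0.00162, limma). The 4 transcripts of Clcn3 differed by at most 2.62% within a library.

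Among sodium-proton exchangers Slc9a9 was higher in melanotropes. Slc9a9 (chromosome 9, 94669892 to 95230452, plus strand) encodes NHE9, an exchanger of recycling and late endosomes. It had 8.10 and 9.28 FPKM in melanotropes, against 2.22 and 2.53 FPKM in corticotropes, and the libraries lay far apart. The means were 8.69 ± 0.837 FPKM in melanotropes and 2.37 ± 0.220 FPKM in corticotropes (SD, n = 2 each), a ratio of 3.66, and the log2 fold change on the FPKM + 1 scale was 1.52 (SE 0.10, adjusted p = 2.12e-04, limma). Implied reads were 5432 and 6093 in melanotropes and 1083 and 2329 in corticotropes. The log2 fold change ranged from 0.89 to 1.83 over the 14 alternatives, lowest with a pseudocount of 5 and highest with one of 0.1. On the deposited scale the values were 7.14 and 7.49 FPKM in melanotropes and 2.71 and 2.91 FPKM in corticotropes. Of 5 tested markers of posterior lobe and glia, 4 were higher in the same melanotrope libraries and Vim was lower. Of all genes tested 18.7% were higher and 17.5% lower. The log2 fold changes of these markers were 2.27 (Slc1a3), 1.912 (Rax), 1.796 (Col25a1), 0.724 (Sox2) and -0.821 (Vim), beside 1.52 for Slc9a9. All 8 listed, tested or not, summed to 56.2 and 65.0 FPKM in melanotropes and 36.4 and 41.5 FPKM in corticotropes, with none at 0 throughout, and their part in the Slc9a9 difference was not tested.

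The Golgi exchanger Slc9a7 was the most abundant of the family at 20.6 and 21.7 FPKM in melanotropes, against 23.9 and 22.1 FPKM in corticotropes (adjusted p = 0.323, limma). The ratio of Slc9a9 to Slc9a7 within a library was 0.393 and 0.429 in melanotropes and 0.0926 and 0.115 in corticotropes, free of the scaling. Slc9a8, also of the Golgi, had 10.8 and 10.3 FPKM in melanotropes, against 11.7 and 9.95 FPKM in corticotropes, and overlapped between cell types. Slc9a2 was at 2.20 FPKM or less and was not called, and Slc9a3, Slc9a4 and Slc9a5, exchangers of epithelia and brain, were at 0.499 FPKM or less and were not tested. Slc9a5 had 0.227 and 0.198 FPKM in melanotropes, against 0.499 and 0.434 FPKM in corticotropes.

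**Figure D4:**
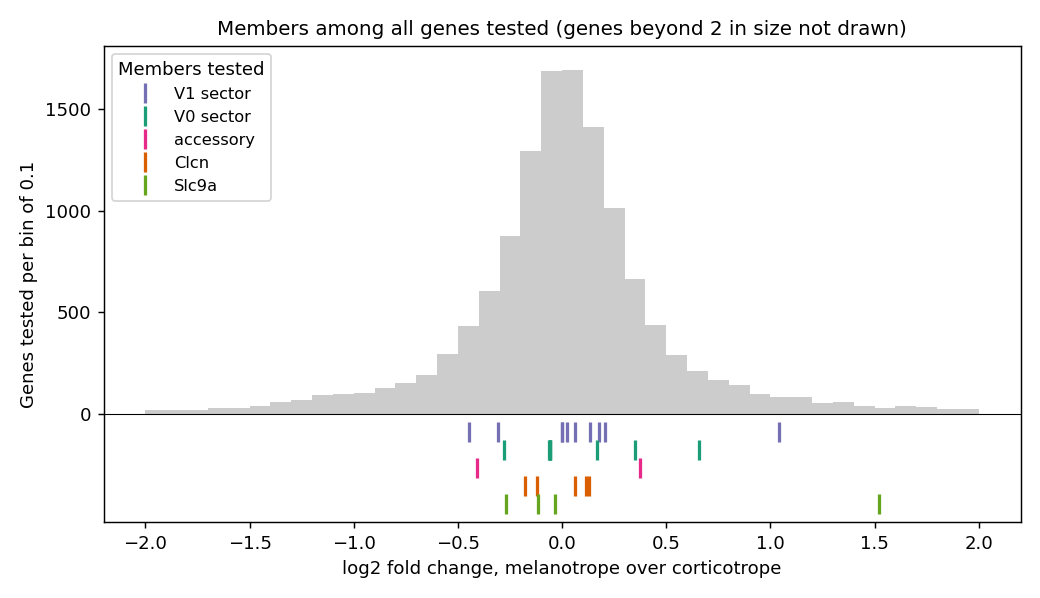
Histogram of log2 fold changes, melanotrope over corticotrope, over the 13043 genes tested (217 beyond 2 in size are not drawn), with a tick for each of 29 members tested, coloured by role, under the axis. Ticks of the members cluster near 0, and the V1 tick at 1.04 and the Slc9a tick at 1.52 lie in the right tail.

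**Figure D5:**
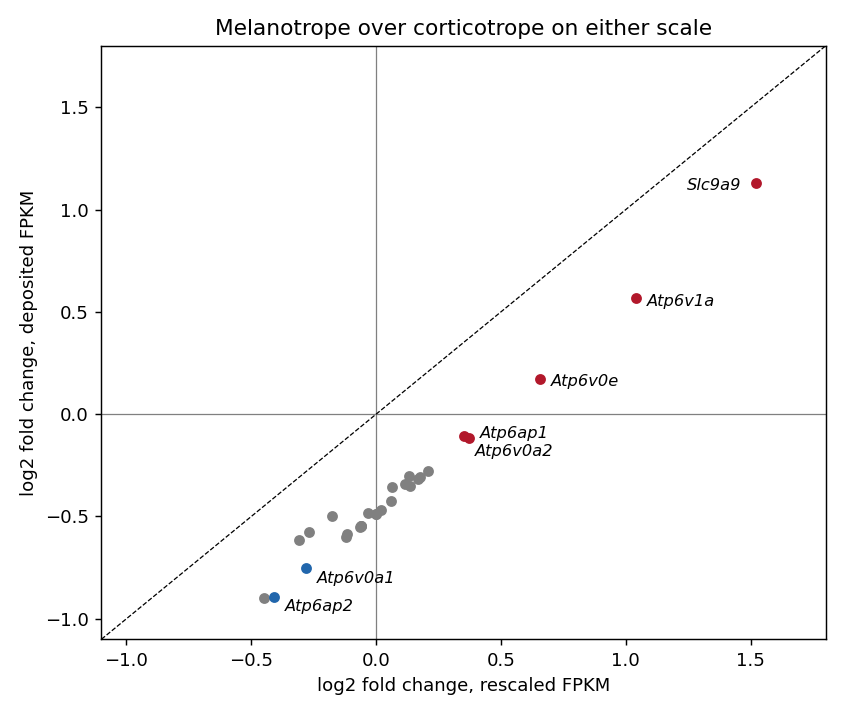
Log2 fold change of 29 members tested on deposited FPKM (vertical) against rescaled FPKM (horizontal), coloured as higher (red), lower (blue) or not called (grey) on rescaled values. All points lie below the dashed line of equality, and Slc9a9, Atp6v1a and Atp6v0e alone stay above 0 on both scales.

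Promoter sequence was read beside these values. Genes of lysosomes and of the pump are known to share E-box motifs bound by the factor TFEB, with CACGTG at their core. In RefSeq windows from 250 bases before to 50 after the start (build GRCm38.p6, the same assembly as mm10), 29 of 40 members matched by symbol. Among the others were Atp6v0a2, Atp6v0c-ps2, Atp6v0d2, Atp6v1b2, Atp6v1c1, Atp6v1g1, Atp6v1h, Slc9a2 and Slc9a4. CACGTG was present in 7 of 29 members (24.1%), against 11.9% of the 9508 tested genes with a window and 8.09% of all 27025 genes, and the longer TCACGTGA, which contains it, in 5 of 29 (17.2%), against 2.25% and 1.12%. TCACGTGA with a G before it and a C after it was in 0 of 29, against 0.831% and 0.370%. All 3 motifs read the same on either strand. Among tested members alone, CACGTG was in 4 of 14 pump and accessory genes (28.6%) and 2 of 8 Clcn and Slc9a genes (25.0%). The 5 members with TCACGTGA were Atp6v1a, Atp6v0e, Atp6v0d1, Clcn6 and Clcn7, of which Atp6v1a and Atp6v0e were higher in melanotropes and the others were not called. Of all genes tested 18.7% were higher and 17.5% lower, and a link between motif and level was not tested. In Atp6v0e, Atp6v0d1 and Clcn7 the TCACGTGA match did not lie wholly within the 250 bases before the start. The 250 bases before the start are shown 5′ to 3′ on the gene's strand, with CACGTG in capitals. They are those of Atp6v1a and Slc9a9, the members that were farthest apart, and of Atp6ap2, which was lower. Those of Clcn6, which carries the motif and was not called, are shown last. These sequences lie at chr16:44139260-44139509 (minus), chr9:94669642-94669891 (plus), chrX:12587509-12587758 (plus) and chr4:148038814-148039063 (minus).
Atp6v1a: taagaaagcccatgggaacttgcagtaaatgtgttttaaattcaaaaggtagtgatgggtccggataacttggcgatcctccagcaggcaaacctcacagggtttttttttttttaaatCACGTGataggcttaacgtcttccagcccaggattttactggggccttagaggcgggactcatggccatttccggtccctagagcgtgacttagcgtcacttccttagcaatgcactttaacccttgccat
Slc9a9: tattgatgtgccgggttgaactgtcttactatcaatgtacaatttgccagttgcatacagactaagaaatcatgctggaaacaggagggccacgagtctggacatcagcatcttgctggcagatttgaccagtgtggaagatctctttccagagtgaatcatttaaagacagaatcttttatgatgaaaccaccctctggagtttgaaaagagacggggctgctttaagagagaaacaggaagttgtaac
Atp6ap2: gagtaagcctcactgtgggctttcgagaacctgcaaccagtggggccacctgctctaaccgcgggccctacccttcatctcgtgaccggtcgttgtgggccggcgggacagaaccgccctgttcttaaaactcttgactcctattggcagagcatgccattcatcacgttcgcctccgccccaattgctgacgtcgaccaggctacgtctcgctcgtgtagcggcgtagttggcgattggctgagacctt
Clcn6: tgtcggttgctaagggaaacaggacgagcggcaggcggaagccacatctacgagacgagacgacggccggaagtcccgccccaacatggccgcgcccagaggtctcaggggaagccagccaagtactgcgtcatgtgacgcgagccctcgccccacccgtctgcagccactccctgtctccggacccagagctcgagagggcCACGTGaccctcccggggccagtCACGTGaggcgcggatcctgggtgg
The RefSeq starts of Atp6v1a and Clcn6 lie upstream of the deposited transcripts' starts, and distances are counted from the RefSeq starts. In Atp6v1a the motif began 131 bases before the start, and in Clcn6 it began 48 and 25 bases before. Slc9a9 and Atp6ap2 had none in these windows. A match describes the letters and shows no binding. Tfeb itself was lower in melanotropes, at 2.58 and 3.61 FPKM, against 6.49 and 8.07 FPKM in corticotropes (log2 fold change -1.02, adjusted p = 0.00397, limma), while Tfe3, a related factor, was at 10.9 and 11.8 against 11.8 and 12.7 FPKM and was not called.

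Other genes of the pathway were read from lists written with earlier results of these data known. Of 14 tested genes that assemble or regulate the pump, 4 were higher and 2 lower in melanotropes, with a median log2 fold change of -0.02, against 18.7% and 17.5% of all genes. Oxr1, a TLDc-domain protein, was higher at 22.9 and 21.8 FPKM in melanotropes, against 14.3 and 13.4 FPKM in corticotropes, and Ccdc115, an assembly factor of the endoplasmic reticulum, at 18.9 and 17.9 against 13.5 and 14.8 FPKM. The lower genes were Tcirg1, given above, and Dmxl1, a part of the complex that rejoins V1 and V0, at 10.8 and 10.3 FPKM against 14.8 and 13.3 FPKM.

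Of 16 tested partners of ion and pH balance in endosomes, lysosomes and Golgi, 2 were higher and 2 lower, against 18.7% and 17.5% of all genes (median log2 fold change -0.04). Mcoln3, a cation channel of endosomes, was at 0.148 and 0.211 FPKM in melanotropes, against 21.3 and 24.7 FPKM in corticotropes (log2 fold change -4.34, adjusted p = 1.68e-05, limma), and Tpcn1, another endosomal channel, was at 5.76 and 5.29 against 9.63 and 9.35 FPKM. The melanotrope values of Mcoln3 were under 1 FPKM, so it passed the filter through its corticotrope libraries alone. Chp1, a calcium-binding partner of sodium-proton exchangers, was higher at 56.5 and 58.4 against 38.9 and 40.2 FPKM, and Gpr89, a Golgi pH regulator, at 13.15 and 13.04 against 10.6 and 10.4 FPKM. The somatotrope, lactotrope, gonadotrope and thyrotrope markers given above moved the same way (13 of 13, none at 0 in all 4 libraries). For those named above as under 1 FPKM in melanotropes the filter fixed that direction. The part of these markers in the lower Mcoln3 was not tested.

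Of 12 tested transporters that load vesicles by the proton gradient or sit in their membranes, 3 were higher and 4 lower, against 18.7% and 17.5% of all genes (median 0.12). Of the lower genes, Slc17a6, Slc10a4 and Sv2c were under 1 FPKM in both melanotrope libraries. They passed the filter through corticotropes alone and could only come out lower. Slc17a6, a vesicular glutamate transporter, was at 0.0681 and 0.112 FPKM in melanotropes, against 15.4 and 14.7 FPKM in corticotropes, and Slc10a4 at 0.261 and 0.322 against 2.30 and 2.17 FPKM. The somatotrope, lactotrope, gonadotrope and thyrotrope markers moved the same way, and their part in the lower Slc17a6 and Slc10a4 was not tested. Sv2b and Slc18b1 were higher, Sv2b at 40.7 and 46.2 FPKM in melanotropes, against 25.3 and 22.5 FPKM in corticotropes, and Slc18b1, a polyamine transporter, at 4.12 and 4.67 against 2.59 and 2.36 FPKM.

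All 31 lysosomal membrane and hydrolase genes were expressed above the filter, of which 7 were higher and 4 lower, against 18.7% and 17.5% of all genes, a share called close to the 36.2% over all genes (median 0.14). Gaa, the acid alpha-glucosidase, was higher at 184 and 194 FPKM in melanotropes, against 57.4 and 59.6 FPKM in corticotropes (log2 fold change 1.67), and Ctsh, an aminopeptidase, at 2.86 and 2.98 against 0.737 and 0.921 FPKM. Ctsz was lower at 23.9 and 23.1 against 34.5 and 36.6 FPKM, as was the cholesterol transporter Npc1 at 12.1 and 11.6 against 16.2 and 17.5 FPKM. Of 10 tested endothelial, blood and immune markers, 2 were higher (the macrophage genes C1qa and Csf1r) and 5 lower, the list summed to 23.1 and 28.2 FPKM in melanotropes and 43.1 and 63.9 FPKM in corticotropes with none at 0 throughout, and their part in the lysosomal differences was not tested.

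Of 15 tested MiT/TFE factors and lysosomal mTORC1 scaffold genes 2 were lower, against 17.5% of all genes, and 13 not called. The lower genes were Tfeb and Fnip1, which holds folliculin at the lysosome, the second at 8.74 and 7.61 FPKM in melanotropes, against 12.6 and 11.9 FPKM in corticotropes. Of 13 tested genes for bicarbonate and proton handling at the cell surface 3 were higher and 4 lower, against 18.7% and 17.5% of all genes (median -0.10). Car14, a carbonic anhydrase, was at 3.69 and 4.18 FPKM in melanotropes, against 0.769 and 0.817 FPKM in corticotropes, and the lactate transporter Slc16a1 at 17.4 and 18.1 against 8.73 and 9.78 FPKM. Slc26a11 was lower at 2.81 and 2.62 against 6.69 and 5.42 FPKM, as was Hvcn1, a voltage-gated proton channel, at 3.81 and 3.94 against 5.99 and 6.02 FPKM. Markers of proton-secreting epithelium and osteoclasts, 6 in number, summed to 1.06 and 0.967 FPKM in melanotropes and 1.08 and 0.860 FPKM in corticotropes, 0 of them passed the filter, and Slc4a9 was listed at 0 throughout.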

How the data were processed

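The members and gene lists were chosen with earlier results of these data known. RNA of 4 libraries, depleted of ribosomal RNA, was sequenced as 50 bp paired ends, per the labels. The deposited FPKM, 1 value per RefSeq transcript, are the output of HOMER's analyzeRepeats.pl (mm10, counting exons, with its rpkm option), per the file headers. TopHat, HOMER and edgeR are named in the submitters' processing notes. The sources used here give neither versions nor the use of strand, and reads of overlapping antisense genes could not be told apart. Replicate labels come from the titles.

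The longest transcript stood for each gene. Columns were divided by unweighted TMM factors (trimming 30% of M and 5% of A) of 0.882 and 0.807 for melanotropes and 1.22 and 1.15 for corticotropes. Genes reaching 1 FPKM in 2 or more libraries entered limma 3.58.1 (R 4.3.3, trended eBayes, two-sided, Benjamini-Hochberg over 13043 genes) on log2(FPKM + 1), which understates changes of low genes, with cell type as the sole term. Some genes passed this filter only through the cell type where they were high. Among them were Mcoln3, Slc17a6, Slc10a4, Sv2c, Avpr1b, Neurod1 and the anterior lobe markers named above (corticotropes), and Car14, Ctsh and Rax (melanotropes). FPKM times length fell on whole multiples of a step (within 0.1 step) for 100% of the 160 to 278 low values used, which gave implied reads. The sources do not give whether a pair counted as 1 or 2 reads. Implied reads cover counting error only. In simulated data for this comparison with 13043 genes, 200 were given a change, against 4726 called on rescaled values. The changed genes were drawn from the more highly expressed genes only, and noise was independent between libraries. In the real data deviations of same-numbered libraries correlated at 0.526. The test found 98% of genes given a log2 change of 1 and 100% of those given 2, with 8 false calls. Low genes and correlated libraries are not covered by these figures. Recovery of changes under 1 was not measured, so these figures do not show that members not called were level. Coordinates are those of the deposited table, counted from 1. Members called or highest of their kind were named, and of every other list at most 2 genes a direction, by smallest adjusted p; values of 2 members are not reported here, though counts include them; other genes were named after their values were seen.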

Additional observations from a re-analysis of the deposited data

How the results depend on the processing

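Atp6v1a and Slc9a9 were called higher under all 14 alternatives, with log2 fold changes from 0.57 to 1.15 and from 0.89 to 1.83. Among 406 values of 29 single members over the alternatives, 339 kept their direction and side of the threshold and 28 changed sign. Of those that kept their sign, 18 lost the call and 21 gained it. Calls also changed among the 28. On deposited FPKM, Atp6ap1 and Atp6v0a2 lost theirs (adjusted p = 0.193 and 0.455, limma), and Atp6v1b2, for 1, gained one as lower (0.0126). On deposited FPKM, which moves the median of all genes to -0.42, 939 genes were higher and 8787 lower, and 2 members higher and 26 lower, and the sign turned with that shift for Atp6ap1 (-0.114), Atp6v0a2 (-0.108), Atp6v0e2 (-0.318), Atp6v1b2 (-0.351), Atp6v1c1 (-0.307), Atp6v1d (-0.422), Atp6v1f (-0.466), Atp6v1g1 (-0.486), Atp6v1h (-0.276), Clcn2 (-0.30), Clcn6 (-0.354) and Clcn7 (-0.341), in log2 fold change. Equal sums of the transcripts other than Pomc left 1 member lower and turned Atp6v1e1 (0.0521) and Slc9a8 (0.0162), and median of ratios factors turned Atp6v1e1 (0.00731). With no filter 1462 genes and 2 members were higher, and taking the transcript with the highest mean turned Atp6v1g1 (-0.00035). Leaving out 1 library gave 1416 to 2041 genes higher and 1387 to 1796 lower, and 3 to 4 members higher and 1 to 2 lower. It turned the sign of genes near 0, none of them called with all libraries, whose log2 fold changes then ran from -0.159 to 0.159 (Atp6v1e1), -0.0769 to 0.12 (Atp6v1f), -0.0694 to 0.0703 (Atp6v1g1), -0.126 to 0.0618 (Slc9a8), -0.138 to 0.0208 (Atp6v0b), -0.155 to 0.0346 (Atp6v0c), -0.154 to 0.0354 (Atp6v0c-ps2) and -0.145 to 0.0148 (Atp6v0d1). The cause was not tested. A lone library left in a cell type is assumed to vary like the others. With replicate number as a block, 8 members were higher and 6 lower (3654 and 3347 of all genes), and those named here that gained the call were Atp6v0e2, Atp6v1c1 and Atp6v1h (higher) and Atp6v1c2, Atp6v1g2 and Slc9a2 (lower), at adjusted p from 0.00103 to 0.0426 in limma. Libraries of the same number share only that number in the labels, and their deviations correlated at 0.526 across genes.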

Other observations

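A few genes of these families fall outside the symbols followed above and were looked at after the member values were seen. Clcn4-2 took 38.1% and 36.6% of the summed FPKM of Clcn3, Clcn4-2, Clcn5, Clcn6 and Clcn7 in melanotropes and 25.4% and 27.2% in corticotropes, while Clcn3 took 39.4% and 40.6% against 49.4% and 49.3%. Slc9b1, Slc9b2, Slc9c1 and Atp6ap1l were each at 0.183 FPKM or less in every library.

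Summed over their genes, without the pseudogene row, V1 transcripts came to 609 and 648.5 FPKM in melanotropes, against 552 and 607 FPKM in corticotropes, and V0 transcripts to 474 and 519 against 450.2 and 494 FPKM. The V0 sums overlapped between the cell types. The V1 sums did not, though the lower melanotrope library stood only just above the higher corticotrope library, at 609 against 607 FPKM. That margin is smaller than the one of Atp6v1a alone in the same 2 libraries (47.0 against 25.4 FPKM). Libraries did not overlap for 70.3% of all genes tested.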
